A study of Mus musculus with 2 samples.

Results

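The antisense contigs were stretches of continuous RNA signal that lay on the strand opposite to an annotated gene. A contig was taken when it was at least 200 bases long, was not on chromosomes M, X or Y, overlapped the span of an Ensembl gene on the opposite strand and overlapped no gene span on its own strand. By this rule 43678 of the 818912 contigs in the mm9 table were antisense, which was 7.19% of the 607478 autosomal contigs of that length. Each was assigned to the opposite-strand gene of largest overlap, called its host here, which gave 9354 hosts. Of the contigs, 42820 overlapped 1 opposite-strand gene only. The series held 2 RNA-seq libraries of 1 group, cerebellum from C57BL/6J mice 8 weeks old, with tissue of males and females pooled and no treatment or genetic change. RNA longer than 200 nt was selected for poly(A) tails after ribosomal RNA depletion and was sequenced strand by strand as paired reads. The labels call the libraries biological replicates and give them one shared donor entry, so the spread between them may be partly technical. There was no second condition, and all values below are descriptions of this tissue.

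Antisense RNA is transcribed from the strand opposite to a gene. It can come from a divergent promoter shared with the host, from a neighbouring gene that runs past its own end, or from a noncoding gene of its own. In brain the best known case is the long transcript that crosses Ube3a on the paternal chromosome and keeps that copy silent in neurons, and Kcnq1ot1 plays a like part in the imprinted domain of Kcnq1.

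The promoter sequences shown here belong to hosts whose start was crossed by an antisense contig. Of the positions profiled below, the start was the one most often covered by such a contig. They are the 250 bases before the annotated start of the 4 protein-coding hosts with the highest start-crossing contigs and a single listed start, read on the strand of the host from RefSeq on GRCm38.p6. Capitals mark matches, on either strand, to 3 promoter motifs. The GC box, a site of Sp-family factors, was searched as GGGCGG. The second motif was CCAAT, bound by the factor NF-Y. The TATA box was searched as TATAAA, and matches to different motifs did not share bases in these stretches. Gorasp2 (chr2:70661259-70661508, plus strand) makes a Golgi stacking protein, Shc2 (chr10:79637919-79638168, minus strand) an adaptor of receptor tyrosine kinases, Hipk4 (chr7:27523011-27523260, plus strand) a protein kinase, and Mat2a (chr6:72439557-72439806, minus strand) the enzyme that forms S-adenosylmethionine.
Gorasp2: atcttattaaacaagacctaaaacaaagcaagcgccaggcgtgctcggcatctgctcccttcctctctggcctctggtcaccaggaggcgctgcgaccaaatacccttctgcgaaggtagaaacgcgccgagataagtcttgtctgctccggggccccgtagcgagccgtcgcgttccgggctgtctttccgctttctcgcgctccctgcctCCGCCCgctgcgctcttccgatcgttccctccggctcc
Shc2: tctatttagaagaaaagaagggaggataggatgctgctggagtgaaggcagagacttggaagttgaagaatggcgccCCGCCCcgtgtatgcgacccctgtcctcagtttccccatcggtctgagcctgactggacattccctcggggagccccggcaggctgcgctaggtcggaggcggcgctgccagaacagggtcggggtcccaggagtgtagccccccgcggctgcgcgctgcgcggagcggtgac
Hipk4: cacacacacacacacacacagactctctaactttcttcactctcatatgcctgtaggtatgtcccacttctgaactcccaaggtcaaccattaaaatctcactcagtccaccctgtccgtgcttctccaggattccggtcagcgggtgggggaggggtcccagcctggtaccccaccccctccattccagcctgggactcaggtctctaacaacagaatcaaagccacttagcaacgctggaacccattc
Mat2a: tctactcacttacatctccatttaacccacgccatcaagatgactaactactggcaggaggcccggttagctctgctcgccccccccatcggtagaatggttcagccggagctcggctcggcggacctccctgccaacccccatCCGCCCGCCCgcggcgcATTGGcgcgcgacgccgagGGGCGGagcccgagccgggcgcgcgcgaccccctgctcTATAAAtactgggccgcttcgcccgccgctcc
The contig over the Mat2a start had a level of 3.44, and the printed stretch held 3 GC boxes, 1 CCAAT box and 1 TATA box with 29 CG dinucleotides. Gorasp2 and Shc2 had 1 GC box each and 25 and 19 CG dinucleotides. Hipk4 held none of the 3 motifs and 4 CG dinucleotides. Over all 18301 listed promoters of autosomal protein-coding genes, 46.1% held a GC box, 34.5% a CCAAT box and 10.4% a TATA box, with a median of 11 CG dinucleotides. A promoter was listed for 77.0% of all 19316 autosomal protein-coding genes and for 77.7% of the 1893 protein-coding hosts with a crossed start. With the rest of both sets unread, motif shares over those hosts are not compared here.

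The contig table gives 1 level for both libraries together, in aligned bases per kilobase of contig per megabase (Mb) of all aligned bases, and it gives no value per library. The median antisense contig had a level of 0.058, with quartiles of 0.04 and 0.09, and was 363 bases long. Behind the median contig stood 1010 aligned bases, the amount in 10 reads of full length, and the lowest contig had 197 aligned bases. Contigs in genes on their own strand had a median of 0.087, and contigs outside all genes had 0.056. Most antisense contigs were thus as faint as the signal between genes. A level of at least 1 was reached by 322 antisense contigs (0.737%) and a level of at least 10 by 17. The authors' irreproducibility value, which is low where a contig was found alike in both libraries, was 0.1 or less for 26299 of them (60.2%) and at its highest value of 0.43 for 4496 (10.3%). At the length limit, the 2486 contigs of 200 to 209 bases had a median level of 0.042, and the 2319 excluded ones of 190 to 199 bases had 0.043.

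A few contigs held most of the antisense signal. All antisense contigs together held 2.86% of the aligned bases in contigs, and a single one held 69.1% of that. It lay at chr17:39979935-39985831 on the plus strand of mm9 over ENSMUSG00000045999, where the mouse assembly holds a copy of the ribosomal RNA precursor, and had a level of 3320. Without it the antisense share of aligned bases was 0.901%.

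By position, 4110 contigs (9.41%, 95% Wilson interval 9.14 to 9.69%) overlapped the promoter window, 1 kb to either side of the host start. Another 1913 (4.38%) lay at the 3-prime end, 1 kb to either side of the host end, and 37655 (86.2%) in the body. Promoter contigs had the highest median level, 0.084, and the greatest median length, 567 bases. At the 3-prime end the median level was 0.071 and the median length 529 bases, and in the body they were 0.056 and 349 bases. Any overlap with a window placed a contig in it. Longer contigs thus reach a window more readily, and length is tied to position by the rule itself. The intervals here and below cover counting error only.

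**Figure D1:**
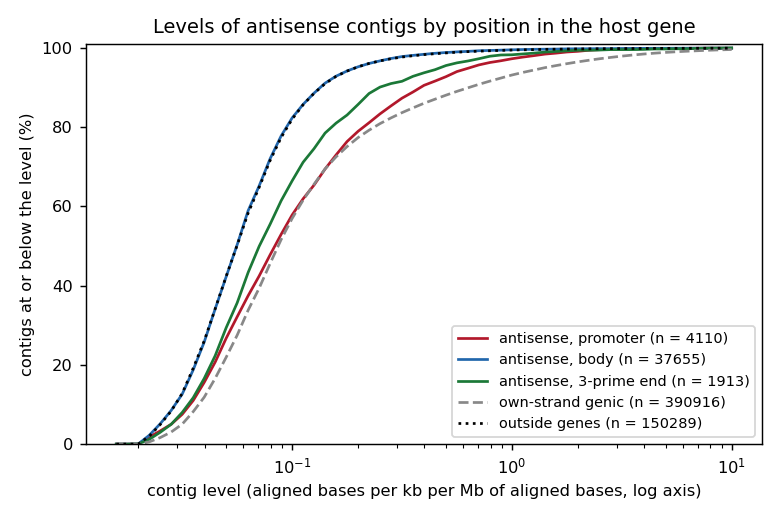
Percent of contigs at or below each level (log axis, aligned bases per kb per Mb of aligned bases) for antisense contigs by position and for 2 other classes of contigs. The body line lies on that of contigs outside genes (medians 0.056 and 0.056). Promoter contigs (median 0.084) are close to contigs in genes on their own strand (0.087) at the median only. At high levels the 2 lines part, with 90th percentiles of 0.383 and 0.636.

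Within the promoter window the contigs that crossed the host start stood apart from those that did not. The 2254 that crossed it had a median level of 0.131 and a median length of 1103.5 bases, and the 1856 others had 0.058 and 349 bases. An annotated gene start on the contig's own strand lay within 1 kb downstream for 77 of the contigs that crossed (3.42%, interval 2.74 to 4.25%). It did so for 281 of the others (15.1%, interval 13.6 to 16.8%) and for 1.59% of all antisense contigs. Contigs that ran into such a gene were left out by the rule. The distance was taken from the contig's downstream end, so these shares also depend on length. Levels were split alike at the 3-prime end, where the 828 contigs that crossed the host end had a median of 0.094 and the 1085 others 0.061. A longer contig is also more likely to cross a start or an end, and levels at equal length were not compared.

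In a profile over genes of at least 10 kb, the share with an antisense contig was highest at the start and fell into the gene. A contig wholly before the start was not taken unless it overlapped another gene. The fall on the upstream side was thus partly set by the rule itself. An antisense contig covered the start of 14.7% of the 5935 genes between 1 and 10 RPKM, of 12.3% of the 884 genes of 10 RPKM or more and of 6.51% of the 7608 genes under 1 RPKM. RPKM is the read number scaled to gene length and sequencing depth. At 1 kb inside the gene the shares had fallen to 5.16, 5.77 and 3.10%, and at 4 kb inside they were 2.49, 2.60 and 2.73%. Host ends went the other way. At the end an antisense contig covered 5.03% of genes under 1 RPKM, 2.98% of genes from 1 to 10 RPKM and 1.13% of genes of 10 RPKM or more.

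**Figure D2:**
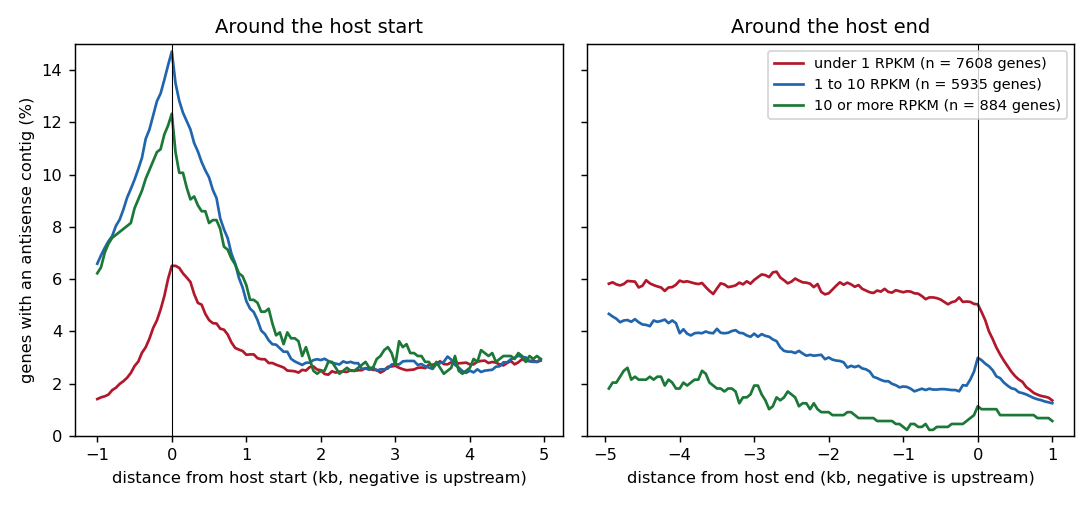
Percent of genes of at least 10 kb with an antisense contig at each distance from the host start and the host end (kb), for 3 classes of host RPKM. The peak sits at the start and reaches 14.7% for genes from 1 to 10 RPKM, whereas at the end the genes under 1 RPKM have the highest share, 5.03%. Contigs wholly outside a gene count only if they overlap another gene, so the fall outside the gene is partly set by the rule.

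The highest promoter contigs, leaving out the ribosomal RNA copy, ranged from 3.95 to 29.2. Gm9800, a short processed pseudogene, had 29.2 over 432 bases, and its sense strand had a level of 47.2 at the same bases. That contig crossed the host end and not the start, and it lay in both windows, of which the promoter took precedence. Tbc1d22a followed with 7.2 over 1787 bases, against 0.85 for sense contigs over 29.0% of it. At Gorasp2, whose promoter is printed above, a contig of 1125 bases (chr2:70499049-70500173 of mm9, minus strand) had a level of 6.43, and sense contigs over 55.3% of it had 4.18. An assembled model of nearly the same antisense stretch had only 0.0346 and 0.0280 RPKM, on the scale of that table. The host itself had 5.66 RPKM in replicate 1 and 6.20 in replicate 2. Shc2 carried 2407 bases of antisense contig at 5.88 against 0.757 on the sense strand, where sense contigs covered 27.9% of it. Nefm, the medium neurofilament chain of large axons, was far higher on the sense strand. Its contig of 3126 bases had 4.73, with 47.1 for sense contigs over 61.7% of it. A junction of the antisense strand had 63 reads in replicate 1 and 45 in replicate 2. Gm10222 lay on a nuclear copy of mitochondrial sequence and had an antisense level of 5.91. Hipk4 was covered from end to end by a contig of 10688 bases at 3.95, which began 254 bases past the end of Pld3 on the same strand, while the host was at 0.0163 and 0.0177 RPKM.

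In gene bodies the highest contigs were mostly short and lay over hosts of 0.104 to 16.7 RPKM. A contig of 532 bases in Jarid2, a partner of the Polycomb complex (chr13:44964926-44965457, minus strand), had a level of 1860. Arhgap21, a GTPase-activating protein, held one of 386 bases at 875, and Sspn, the dystrophin-associated sarcospan, one of 310 bases at 630. How reads that map to several places were counted in this table is not known here. Cntnap5b (64.0), ENSMUSG00000087558 (62.5), Vwa8 (45.8), Tmem132d (39.7) and Copg2 (31.4) followed. Copg2, a coat protein subunit next to the imprinted gene Mest, differed in length, with 6405 bases of antisense contig. Jarid2 itself had 4.25 and 3.25 RPKM in the 2 replicates, and Sspn 0.523 and 0.606. No sense contig overlapped the contigs in Jarid2, Arhgap21, Sspn, Cntnap5b and Tmem132d, whereas the one in Copg2 had a sense level of 2.14 beside it.

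The highest contigs at host ends were led by Zfhx2, a zinc finger homeobox gene, where 35068 bases of antisense contig (chr14:55672300-55707367, plus strand) crossed the host end at a level of 9.64. A junction of the contig's strand had 321 and 233 reads in replicates 1 and 2, and a junction with 68 reads joined the contig to Thtpa. The contigs at Cyb5r3 (7.09), 1500009C09Rik (6.73), Anp32b (6.37) and Neurod2 (4.13) were 237 to 553 bases long and did not cross the end. Those at Wwox (5.08, 10655 bases) and Srebf2 (4.34, 12315 bases) crossed it. The Wwox contig was joined by a junction with 34 and 51 reads to Maf, a transcription factor gene on the contig's strand. Srebf2, which encodes the transcription factor of cholesterol synthesis, had an antisense junction with 737 and 624 reads.

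Contigs near host ends were also those that most often followed another gene. An own-strand gene ended at most 10 kb upstream of 10021 antisense contigs (22.9%, interval 22.6 to 23.3%). The share was 54.8% at the 3-prime end, 20.1% at the promoter and 21.6% in the body, beside 24.3% of contigs outside genes. Just upstream of a contig at the host end lies the ground beyond the host, whereas a body contig has more of the host there. These shares thus also depend on position by the rule itself. The median level went from 0.07 within 1 kb of that upstream end to 0.064 at 1 to 5 kb, 0.061 at 5 to 10 kb and 0.057 beyond. Across contigs within 1 kb, the level and the RPKM of the upstream gene had a Spearman rho of 0.191 (n = 1033), and at 10 to 50 kb rho was 0.0213 (n = 16359). All such contigs share the 2 libraries and one table.

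The 5 longest antisense contigs were those of Kcnq1, Zfhx2, ENSMUSG00000078587, Trappc12 and Macrod1. In Kcnq1, a potassium channel gene, 1 contig ran for 69600 bases (chr7:150412888-150482487, minus strand) at 0.625, with sense contigs on 2.13% of it. A contig of 34961 bases at 1.55 ran through ENSMUSG00000078587 and lay mostly beyond that gene. Trappc12, a vesicle tethering factor, had 33080 bases at 0.525 and an antisense junction of 8 and 5 reads to Adi1, which ended 3147 bases upstream. Macrod1, an ADP-ribose hydrolase, had 32311 bases at 0.233. Kcnq1 carried 21 contigs with 120304 bases in all and Ube3a, the ubiquitin ligase, 5 contigs with 83671 bases. The highest at Ube3a had a level of 2.72 over 30930 bases, with a sense level of 0.755 over 74.2% of it. A junction of that contig's strand had 174 and 146 reads by replicate.

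Host level and antisense level were nearly unrelated over the whole set. Spearman's rho was 0.0605 over 43678 contigs. For contigs that overlapped an exon on the host's strand it was 0.311 (n = 9846), and for those within introns 0.0639 (n = 33832). The median level of exonic contigs was 0.064 over hosts at 0 RPKM, 0.068 over hosts up to 1 RPKM, 0.116 from 1 to 10 RPKM and 0.144 from 10 to 100 RPKM. Intronic contigs stayed between 0.053 and 0.059 in the same classes. Contigs over 1 gene share that gene, and all share depth and table.

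At the same bases the sense strand was usually the stronger. A sense contig was present for 32754 of the 43678, and the median ratio of antisense to sense level was 0.225 (quartiles 0.084 and 0.567). The ratio sets a whole contig against the sense contigs over any part of it. Over all 43678 contigs, sense contigs covered a median of 94.7%, with those lacking a sense contig counted as uncovered. Antisense was higher in 4239 (12.9%). Where the sense level was under 0.1 the median ratio was 0.939, from 0.1 to 1 it was 0.209, from 1 to 10 it was 0.0358 and from 10 to 100 it was 0.00444. The lowest antisense level in the table was 0.019, which sets a floor to the ratio in each class. Between sense levels of 1 and 10 the ratio was 0.0713 for exonic and 0.0298 for intronic contigs. What part of these levels came from sense reads placed on the wrong strand was not tested.

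**Figure D3:**
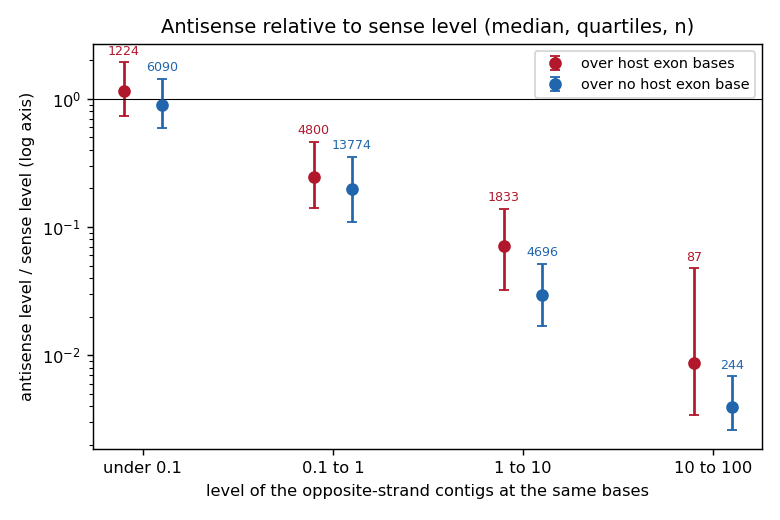
Antisense level divided by sense level (log axis) by class of sense level, with points at the median, bars from the lower to the upper quartile and the number of contigs above each bar. Exonic contigs lie above intronic ones in all 4 classes, with 0.0713 against 0.0298 at sense levels of 1 to 10.

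The contigs with the highest ratios over hosts of at least 1 RPKM were of 2 kinds. Vwa8 (ratio 111), Slc24a2 (36.5), Sfi1 (24.4) and Tbc1d9 (19.2) had contigs of 290 to 742 bases within the host, of which that in Sfi1 overlapped 8 exon bases and the others none. Il17d, a cytokine gene, had a start-crossing contig of 2726 bases at 2.82 with a sense level of 0.042 over 6.46% of it, a ratio of 67.1. Abhd18 had a pair of neighbouring contigs of 3811 and 1799 bases with ratios of 24.3 and 20.9, where sense contigs covered 25.5 and 13.1%. Fam163b closed the list at 18.9, with 64.9% covered. The contig in Slc24a2, an ion exchanger gene, was joined to Acer2 by a junction with 93 and 135 reads, and that in Sfi1 to Pisd-ps1 with 924 and 873 reads, so both replicates held reads joining each of these contigs to a gene of its own strand.

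A splice junction of at least 2 reads on the contig's own strand touched 3509 antisense contigs (8.03%), beside a background of 17.7% of all autosomal contigs of that length and 6.32% of contigs outside genes. The share was 22.7% at the promoter, 12.9% at the 3-prime end and 6.18% in the body. Contigs touched by a junction that did not mirror one of the host had a median level of 0.138 and a median length of 737 bases, against 0.056 and 352 bases for the rest. Of those 3505, 2112 (60.3%) had reads of their strongest junction in both replicates. With at least 10 reads, 700 of 704 did. A junction joined 767 contigs (1.76%) to an annotated gene of their own strand.

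The assembled gene models gave the value per replicate that the contigs lack. At least 50% of their length lay in a model of their own strand for 9373 contigs (21.5%). Of these, 7131 were in 4279 models that overlapped no annotated gene on that strand. More than 1 exon entry was listed for 885 of these models (20.7%). Entries of 1 model may overlap and do not count the exons of 1 transcript. The model in Arhgap21, for example, had 4 entries within 0.367 kb. The 4279 models had a median of 0.0215 RPKM in replicate 1 and 0.0213 in replicate 2, and 47 reached 1 RPKM in both. Of the 353 with a mean of at least 0.1 RPKM, 31 (8.78%) differed 2-fold or more, beside a background of 8.89% of all assembled models; 17 were higher in replicate 1 and 14 in replicate 2. The model in Jarid2 had 125 and 111 RPKM in the 2 replicates, and that in Arhgap21 113 and 86.1 RPKM. At Zfhx2 the values were 5.55 and 5.15 RPKM, and at Copg2 7.78 and 9.85 RPKM. All of these were within 2-fold between replicates. Sspn was not, with 2.16 and 0.732 RPKM.

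Model and contig values were not on one scale. Over 1936 single-exon models nearly equal in extent to 1 contig, the model's RPKM was a median of 0.267 of the contig level (quartiles 0.221 and 0.290), and in 175 of them it was under 0.1 of it. In Jarid2 the level of 1860 stood beside 125 and 111 RPKM. No source used here says how either table counted reads that map to several places, so the highest levels are those of the deposited contig table alone. Why the tables differ was not tested.

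**Figure D4:**
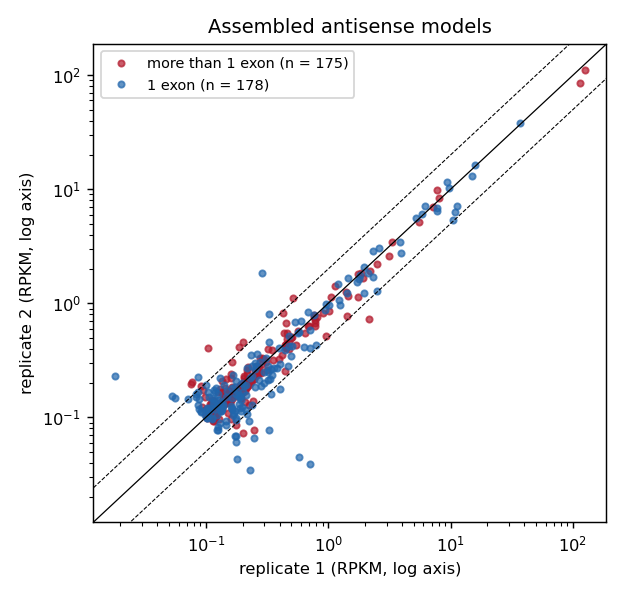
RPKM in replicate 1 against replicate 2 (log axes) for the 353 assembled antisense models with a mean of at least 0.1 RPKM, with the solid line at equality and dashed lines 2-fold apart. Of the points, 31 lie on or outside the dashed lines, and the 2 highest are Jarid2 (125 and 111) and Arhgap21 (113 and 86.1).

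Of 34653 autosomal genes, 9354 (27.0%) were the host of an antisense contig, as were 48.4% of the 9724 genes of at least 1 RPKM. Where a contig overlapped several genes, as 858 did, only the gene of largest overlap was counted here and in the shares by span. Their presence followed the span of the gene. Of genes under 5 kb 6.45% had one, of genes of 20 to 100 kb 50.2%, and of genes over 500 kb 93.2%. Among the hosts with the most were Gm20388 (314), E130114P18Rik (166), Pde4d (166), Fgfr2 (163), 4930555F03Rik (152), Kcnab1 (131) and Kcnn2 (128). In the table Gm20388 spans 4435 kb and Fgfr2 3009 kb, so their counts cover the ground of many other genes. E130114P18Rik was denser, with contigs on 35.8% of its 209.9 kb, and 4930555F03Rik denser still with 56.2% of 150.2 kb. The first had 1.00 and 0.981 RPKM and the second 0.00265 and 0.000679 RPKM, so a dense antisense strand occurred over a transcribed and a nearly silent host. Kcnab1, a potassium channel subunit, had contigs on 28.9% of its span, all between 0.021 and 0.272.

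Over marker genes of cerebellar cell types, the median level of antisense contigs ran from 0.0385 (microglia) to 0.078 (oligodendrocytes) by list. Over all antisense contigs it was 0.058. As hosts, the granule cell markers had a median of 22.1 RPKM and the Purkinje cell markers one of 19.5 RPKM, against 1.16 RPKM for choroid plexus and ependyma. Among Purkinje cell genes, 10 of 15 had at least 1, beside the 48.4% of genes of at least 1 RPKM and with a median span of 58.2 kb. Rora, a nuclear receptor needed for Purkinje cell survival, had 20 of up to 1.14, and Itpr1, the calcium release channel, 11 of up to 0.08. For granule cells 7 of 15 genes had contigs, with 10 at Reln and 2 of up to 0.652 at Fat2. The counts were 5 of 10 for GABAergic interneurons, 3 of 11 for oligodendrocytes and 3 of 12 for astrocytes and Bergmann glia. They were 3 of 8 for microglia, 3 of 8 for endothelium and mural cells and 2 of 6 for choroid plexus and ependyma. Median spans were 14.6 kb for granule cell genes, 16.8 kb for oligodendrocytes, 13.3 kb for astrocytes, 6.42 kb for microglia and 9.52 kb for choroid plexus. Of all genes of 5 to 20 kb, 31.5% had a contig. Spans were 62.7 kb for interneurons and 40.1 kb for endothelium, and Purkinje cell genes were also in the class of 20 to 100 kb by their median. In that class 50.2% of all genes had a contig. These libraries are of whole tissue, so a small number of cells with an antisense RNA and a small amount in many cells cannot be told apart.

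Ion channel and receptor genes with large spans had contigs in 10 of 12 cases, with a median span of 313 kb, beside 76.5% of all genes of 100 to 500 kb. Gria4, an AMPA receptor subunit, had a start-crossing contig of 4478 bases at 1.11, beside a sense level of 1.64 over 22.0% of it. A junction of that contig's strand had 11 and 15 reads by replicate. Kcnd2, a potassium channel gene, reached 0.805 within its body. Among brain genes known for antisense partners, 17 of 31 had contigs, with a median span of 26.9 kb, beside 50.2% of all genes of 20 to 100 kb. Apart from Ube3a and Kcnq1, the highest were at Rapgef4 (0.589), Sphk1 (0.512), Gnas (0.362) and Zic4 (0.342), and the first 2 of these crossed the host start. At Bdnf, 3 of 5 contigs were touched by a junction, with levels of 0.043 to 0.150. App had 6 of up to 0.278 and Mapt 2 of up to 0.251.

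The mm10 tables of both libraries list antisense genes whose identifiers the older gene set lacks. By annotation, 983 genes without an entry in the mm9 table overlapped 778 of the hosts on the opposite strand, and they were matched to hosts by identifier, not to single contigs. At least 1 TPM (a share of all transcripts, scaled for length) in both replicates was reached by 119 of them (12.1%), and 478 were at 0 in both. Of the 119, 1 differed 2-fold or more between replicates, 4930447F24Rik at 2.34-fold, beside a background of 1.11% of genes. Snhg14 is the noncoding host of brain small nucleolar RNAs that runs on across Ube3a. It had 473 TPM in replicate 1 and 375 in replicate 2, while Ube3a had 11.0 in both. These values are of whole genes and not of the bases that a pair shares. At Ube3a the highest antisense contig had 2.72, against a sense level of 0.755 over 74.2% of it. Zfhx2os had 48.6 and 41.5 TPM beside 7.19 and 6.75 for Zfhx2. A330023F24Rik had 41.7 and 39.5 beside 3.35 and 2.64 for its host Cd46. Snhg6 over Mcmdc2 (34.4 and 33.4), Tmem147os over Gapdhs (28.3 and 25.8) and 9330151L19Rik over Dnaaf2 (22.9 and 20.3) were also above their hosts, and Rps23-ps1 over Gm5148 had 46.0 and 60.2. Kcnq1ot1 was low per length, with 1.28 and 1.17 TPM, yet drew 5709 and 5524 expected counts.

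The same list held protein-coding genes. Tmem151b (85.1 and 78.9 TPM), over Tcte1, was one of them. Ccdc85b (49.9 and 53.8), over Fosl1, and Purb (53.6 and 48.7), over Gm11973, were the others among the 10 highest. In all, 49 of the 983 were protein-coding, so some hosts had an opposite coding gene whose identifier the older gene set lacked. Whether the older set held such a gene under another identifier was not tested. Above their hosts were 37 of the 119.

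**Figure D5:**
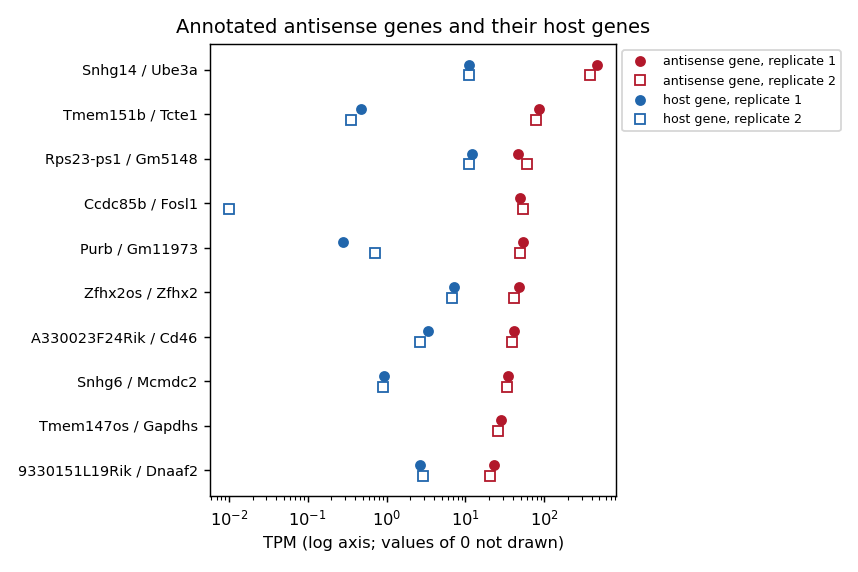
TPM (log axis) of the 10 highest antisense genes of the mm10 tables and of the host genes opposite them. Filled circles are replicate 1 and open squares replicate 2. Each TPM is of a whole gene, not of the bases that a pair shares. In all 10 pairs both replicates of the antisense gene lie above those of the host, from Snhg14 (473 and 375) to 9330151L19Rik (22.9 and 20.3), and values of 0 are not drawn.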

How the data were processed

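Cerebellum poly(A) RNA of 1 group with 2 libraries was analysed. The authors deposited on mm9 a contig table with a signal level, an irreproducibility fraction and a score (aligned bases) per contig, junction read counts, and gene and assembled-model tables with RPKM per replicate, and on mm10 expected counts and TPM per gene. No source used here gives the aligner, assembler or quantifier. Level was found to be aligned bases per kb per Mb of aligned bases, relative to 48.4 Gb (deviation up to 0.487% over 7119 contigs). The mm10 libraries held 79771873 and 80281011 expected counts over genes. The replicate numbers in the mm9 tables name no library.

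The mm9 gene table lists 37310 genes of Ensembl 65, and 32620 (87.4%) took a symbol and gene class from GENCODE M21 by identifier. Exons were those of the deposited mm9 exon table, and a contig was exonic when it overlapped an exon on the host's strand. Where a contig overlapped several hosts, the one with the largest overlap was used, and the promoter took precedence over the 3-prime end. A junction touched a contig when an end lay inside it or within 5 bases. No test was run, since there is 1 group and the contig table pools its libraries. Interval code was tested on simulated data (Python 3.11.15, pandas, scipy). Members and lists were chosen with earlier results of these data known. Genes named are the 8 highest contigs per position (1 per host), the 5 longest, the 8 hosts with most contigs and the 8 highest ratios. Also named are the 8 models with most exon entries, the 10 highest mm10 antisense genes and hosts in the marker lists. Some genes within these sets are not reported here. The mm9 genome was not used here, so contig sequences are not shown.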

Additional observations from a re-analysis of the deposited data

How the results depend on the processing

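The number of contigs was within 1.5 times of 43678 under 5 of 8 alternatives and was 14118 with a minimum of 500 bases, 26299 with an irreproducibility value of at most 0.1 and 28084 when contigs under 500 bases apart were merged. Shares at the promoter, in the body and at the 3-prime end were 7.51, 89.2 and 3.33% with a window of 500 bases, 12.2, 81.1 and 6.65% with 2 kb, 16.0, 77.0 and 7.04% with a minimum of 500 bases, and 11.8, 82.8 and 5.40% with an irreproducibility value of at most 0.1. With precedence of the 3-prime end they were 8.12% at the promoter and 5.67% at the end, and with the host of nearest start 9.82% at the promoter and 85.9% in the body. Leaving out host spans over 2.5 Mb, chosen after seeing the data, moved no share beyond its interval. Median levels in that order were 0.141, 0.079 and 0.108 with a minimum of 500 bases, 0.113, 0.078 and 0.092 at an irreproducibility value of at most 0.1, and 0.225, 0.077 and 0.202 when weighted by length. The rank correlation with host level was 0.0603 to 0.0606 without 1 replicate, 0.105 at an irreproducibility value of at most 0.1 and 0.0639 over introns. The median ratio to the sense level was 0.194 where sense contigs covered at least 50% and 0.283 at an irreproducibility value of at most 0.1. The share downstream of a gene end was 11.8% within 5 kb and 60.4% within 50 kb. Junctions touched 22.6% with at least 1 read and 1.61% with at least 10. With an overlap of 1 base 21.9% lay in a model. Without 1 replicate the median model RPKM was 0.0213 to 0.0215, and 125 to 129 mm10 antisense genes reached 1 TPM. In both replicates 289 reached 0.1 TPM. No paired analysis was possible because the series has 1 group. The contig levels have no value per library, and the faintest rest on about 2 reads.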

Other observations

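Among contigs inside the assembled models with the most exon entries, the 6 given here lay a short way past another gene. The contig in the model with the most, 268 entries, did not. The contig in that model, over ENSMUSG00000078587, lay 614735 bases from the nearest upstream gene end, and the model overlapped no own-strand gene. The 6 lay 804 to 4706 bases downstream of the end of an own-strand gene, and each model overlapped such a gene. The contig in Gm10644 lay 804 bases past Adgrl1, a latrophilin. Its model had 209 exon entries, with 6.10 RPKM in replicate 1 and 5.90 in replicate 2. The contig at the end of Aqp12 lay 2965 bases past Kif1a, the axonal kinesin, in a model of 185 exon entries with 8.19 and 8.28 RPKM. Herc1 stood in the same relation to Fbxl22 (4706 bases), Ncor1 to Ttc19 (3476 bases), Cdk5r1 to Myo1d (3671 bases) and Bpnt1 to ENSMUSG00000091047 (4438 bases). In these 6 contigs the level was 0.045 to 0.238. Junctions of at least 2 reads touched none of them, and 1 read touched that at ENSMUSG00000091047.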
